A study of Mus musculus with 18 samples.

Results

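The genes of oxidative phosphorylation were followed in 18 mouse libraries from colon, lung and liver, as 13 genes of the mitochondrial genome and 84 genes of the nuclear genome. They were chosen by symbol, as the protein-coding genes of the mitochondrial genome and the nuclear genes named Nduf, Sdh, Uqcr, Cox and Atp5, with at least 1 TPM in at least 3 libraries. Of 55401 genes in the files, 102 symbols matched and 97 reached that level. Cox8c, Cox7b2, the pseudogenes Ndufa11b and Ndufs6b, and a second identifier of Atp5o did not reach it in any library. TPM is a share of all transcripts adjusted for gene length, which puts the genes of a library on a common scale. Reads shared with identical copies limit comparisons between genes, as given below for mt-Atp6 and Ndufb4. The read depth behind these values is unknown.

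All mice were C57BL/6N of 7 weeks. They were given RECTAS, a small molecule named as a rectifier of aberrant splicing, by mouth at 100 mg/kg in 0.5% CMC (carboxymethyl cellulose), or 0.5% CMC alone, with doses 4 h apart, and tissues were taken 8 h after the first dose. Each of the 6 groups, vehicle or RECTAS in colon, lung or liver, had 3 libraries of polyadenylated RNA from whole tissue. Nothing in the labels ties replicates to different mice, and p-values therefore measure only the spread between these libraries, which may be technical. In bulk tissue, fewer cells of a type and less RNA per cell cannot be told apart.

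Oxidative phosphorylation passes electrons from NADH and succinate through complexes I, II, III and IV to oxygen, and ATP synthase, complex V, uses the proton gradient that this builds. Complexes I, III, IV and V combine subunits encoded by both genomes, whereas complex II is nuclear only. The mitochondrial genome is transcribed as long precursors that are cut into messenger RNAs, and nuclear subunits are made in the cytosol and imported. Among the 97 genes, complex I had 7 mitochondrial and 36 nuclear genes, complex II had 4 nuclear genes, complex III had 1 and 8, complex IV had 3 and 19, and complex V had 2 and 17. Ndufa4 and Ndufa4l2 were placed with complex IV, where the Ndufa4 protein resides. All other genes were placed by the start of their symbol, which also counts genes that need not encode a subunit, such as Cox7a2l with complex IV. The nuclear genes lay on 19 chromosomes, 3 of them on X (Ndufa1, Ndufb11 and Cox7b). Ndufb4c and Cox6c2, which the symbol rule also took, are annotated as processed pseudogenes.

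Several mitochondrial messages cannot be measured alone. The reading frames of mt-Atp8 and mt-Atp6, which encode subunits of ATP synthase and are carried on a shared message, overlap by 43 bases. The whole of mt-Atp8 is 204 bases (GRCm38, chrM:7766-7969, plus strand), shown with the shared bases in capitals.
mt-Atp8: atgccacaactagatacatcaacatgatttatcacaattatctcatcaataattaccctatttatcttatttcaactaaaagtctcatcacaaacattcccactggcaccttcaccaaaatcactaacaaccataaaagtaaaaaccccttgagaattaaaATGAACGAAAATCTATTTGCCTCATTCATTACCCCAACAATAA

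A block of nuclear DNA on chromosome 1 (GRCm38, 24611535 to 24616197, minus strand) holds 7 annotated pseudogenes that match mitochondrial genes, and 5 of them are identical to their mitochondrial counterpart over their whole length. The start of mt-Co2, which encodes a copper-binding subunit of cytochrome c oxidase (chrM:7013-7072, plus strand), and of its copy Gm28661 (chr1:24615506-24615565, minus strand) were the same base for base. The start codon is in capitals.
mt-Co2: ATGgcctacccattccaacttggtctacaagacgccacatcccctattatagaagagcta
Gm28661: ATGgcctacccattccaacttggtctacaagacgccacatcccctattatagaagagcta

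Gm28438 differed from mt-Nd3, a small membrane subunit of complex I, at 1 of 345 bases, the substitution T3C counted from the first base of mt-Nd3. Gm29216 covered part of mt-Co1, the catalytic core of cytochrome c oxidase, and differed from it at 6 bases, all within its first 13, before 479 identical bases. The first 33 bases of each copy (chr1:24613087-24613119 and chr1:24616165-24616197, minus strand) are shown under the matching stretch of the mitochondrial gene (chrM:9459-9491 and chrM:6381-6413, plus strand), with the bases that differ in capitals.
mt-Nd3: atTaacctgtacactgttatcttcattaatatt
Gm28438: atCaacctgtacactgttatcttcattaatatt
mt-Co1: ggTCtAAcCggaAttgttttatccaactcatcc
Gm29216: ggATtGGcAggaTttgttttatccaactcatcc

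These copies were given large TPM values. In vehicle colon, Gm28661 stood at 30605 ± 802 TPM (SD, n = 3) against 6232 ± 272 TPM for mt-Co2, so the copy held 83.1% of the pair. The share was 84.3% in vehicle lung and 84.8% in vehicle liver. For mt-Atp6 and its copy Gm10925 the copy held 84.2%, 86.0% and 83.2% of the pair in vehicle colon, lung and liver, and for mt-Nd3 it held 89.6%, 91.7% and 88.8%. The copy's share was thus alike in 3 tissues whose levels differed.

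For mt-Co3 the share of the copy in vehicle colon was 65.7%, for mt-Nd4l 74.0%, for mt-Co1 29.3% and for mt-Nd4 0.699%. Mt-Atp8, mt-Nd1, mt-Nd6 and mt-Cytb had no annotated copy at 95% identity. Copies elsewhere in the genome reached at most 3.5 TPM. Reads from a gene and an identical copy cannot be told apart. The levels of mt-Co2, mt-Atp6, mt-Co3, mt-Nd3 and mt-Nd4l are therefore uncertain, and the main results on them are followed by values with the copies added. The copies of mt-Co1 and mt-Nd4 match only part of the gene, and reads of that part are uncertain too. These copies are shorter than the genes, so TPM summed over gene and copy is not a level of the gene.

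**Figure D1:**
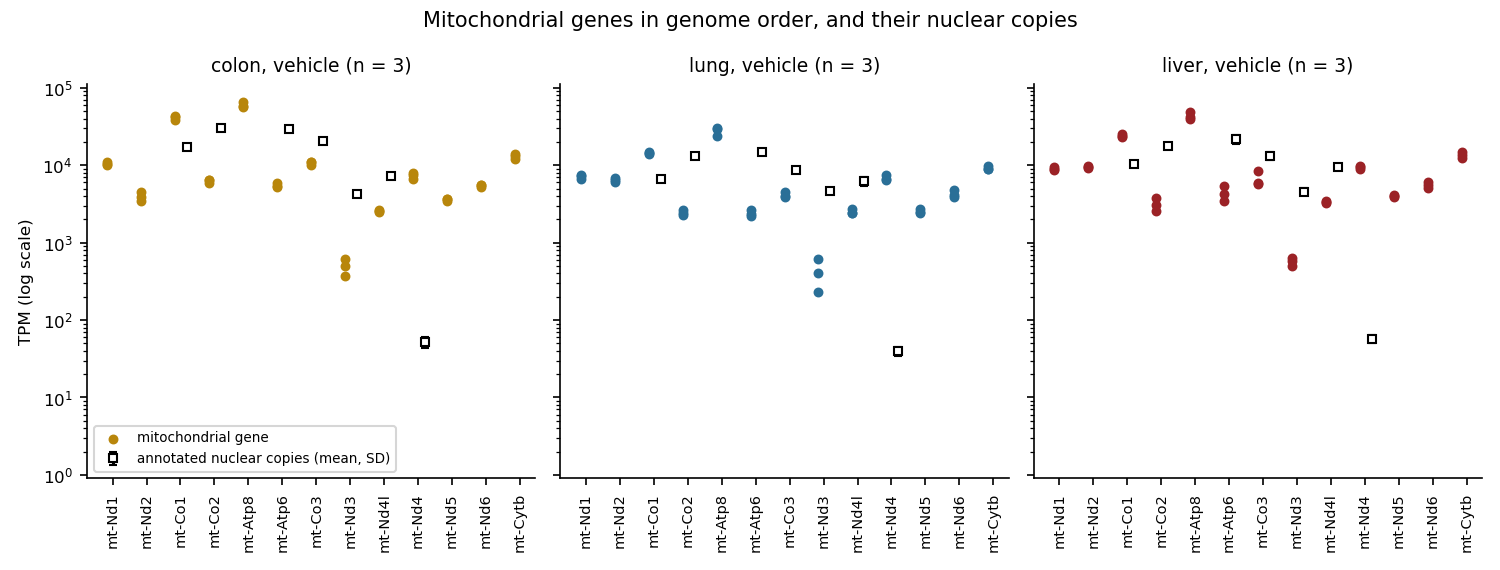
TPM on a log axis of the 13 mitochondrial genes in genome order in the vehicle libraries of each tissue (filled points, 1 per library), with the summed TPM of their annotated nuclear copies (open squares, mean and SD of 3 libraries; copies under 1 TPM not drawn). The squares lie above the gene for mt-Co2, mt-Atp6, mt-Co3, mt-Nd3 and mt-Nd4l in all 3 tissues.

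The messages of mt-Atp8 with mt-Atp6, and of mt-Nd4l with mt-Nd4, are shared, so their levels can be set side by side. Over the 18 libraries mt-Atp8 was listed at 7.43 to 14.22 times the level of mt-Atp6, and with the copies added at 1.38 to 1.84 times. The ratio of mt-Nd4l to mt-Nd4 averaged 0.343 in vehicle colon and 1.31 with the copies added. The spread between libraries also changed: the coefficient of variation of mt-Co2 in vehicle liver was 19.0% alone and 4.9% with its copy.

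The 13 mitochondrial genes together took a larger share of transcripts than the 84 nuclear genes in every library. In vehicle colon they summed to 166670, 168971 and 176964 TPM, in vehicle lung to 86889, 90175 and 94984 TPM, and in vehicle liver to 130243, 136640 and 143562 TPM. The 3 tissues did not overlap, with colon highest and lung lowest. The nuclear genes ranged over 32011 to 35272 TPM for vehicle colon, 13308 to 14441 for lung and 18146 to 18988 for liver, in the same order and again without overlap.

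The ratio of the mitochondrial sum to the nuclear sum does not change when all genes of a library are multiplied by the same factor. A normalisation that changes genes unequally can change it. It was 5.07 ± 0.302 (SD, n = 3) in vehicle colon, 6.53 ± 0.531 in lung and 7.40 ± 0.26 in liver. Colon libraries, at 4.73 to 5.28, lay below every lung and liver library, while lung at 6.19 to 7.14 touched liver at 7.10 to 7.56. With the copies added the ratios were 7.93, 9.89 and 11.01, in the same order. Without genes shorter than 300 bases they were 3.21, 4.35 and 4.86. In TPM as deposited, colon thus had the highest sum for both genomes, and the lowest ratio between them. The place of colon above liver depends on the scaling, as the comparison of single genes gives, whereas a common factor per library leaves the ratio unchanged.

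**Figure D2:**
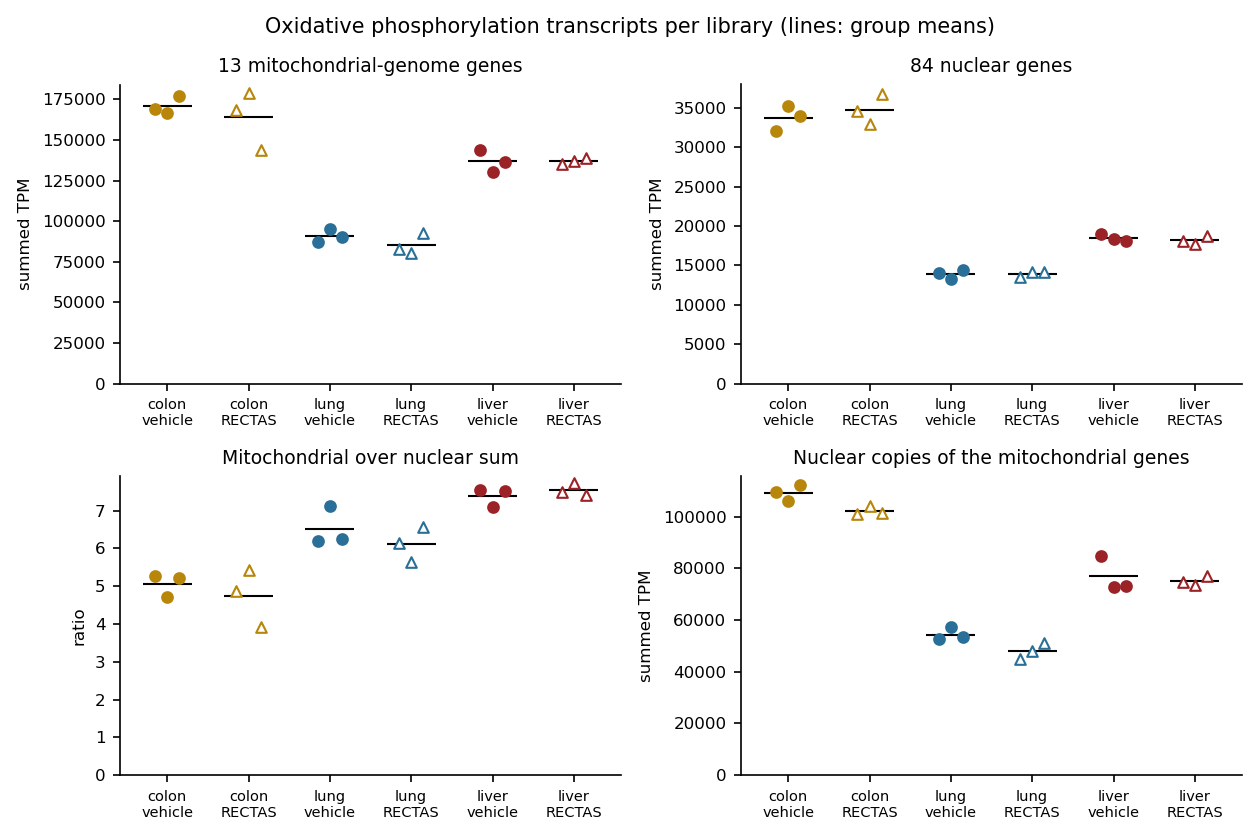
Summed TPM of the 13 mitochondrial and 84 nuclear genes, the ratio of these sums, and the summed TPM of the nuclear copies of mitochondrial genes, per library (filled circles, vehicle; open triangles, RECTAS; lines, means of 3). Colon is highest and lung lowest for both sums, colon is lowest for the ratio, and 1 colon RECTAS library has the lowest ratio, 3.92.

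Tissues were compared over all genes in the vehicle libraries with limma on log2(TPM + 1), adjusted over 16715 genes at 0.05. A fold change on this scale understates the change of low genes. The median of all genes was not 0: it was -0.68 for liver minus colon, 0.35 for lung minus colon and 1.10 for lung minus liver, so each comparison is also read against this shift. The same vehicle libraries enter 2 of the 3 comparisons.

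Against colon, lung had lower nuclear genes in nearly every case. Of the 97 genes 87 were lower and 6 higher in lung than colon, where 24.7% and 51.0% of all genes were called lower and higher. The median was -1.18 for nuclear genes and -0.49 for mitochondrial ones. Median ratio scaling, which sets the typical gene to no change, gave 90 lower and 6 higher, against 36.9% and 35.5% of all genes. By complex, the nuclear medians were -0.93 for I, -1.43 for II, -1.43 for III, -1.46 for IV and -1.47 for V, so complex I differed least.

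Lung was also mostly below liver. Of the 97 genes 65 were lower and 14 higher in lung, where 13.5% and 74.5% of all genes were called lower and higher, and the median ratio scaling gave 91 lower and 6 higher against 36.9% and 39.8%. Quantile normalisation, which gives every library the same distribution of values, gave 52 lower and 21 higher, and there the mitochondrial median was 0.41 in place of -0.56. The direction of the mitochondrial genes between lung and liver thus depended on the scaling, whereas the nuclear genes were mostly lower under each, with 53 called lower as deposited, 78 under median ratio scaling and 51 under quantile normalisation.

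Liver against colon had no direction that held under every scaling. As deposited, 83 of the 97 genes were lower and 7 higher in liver, where 63.8% and 16.1% of all genes were called lower and higher. Read against the shift of all genes, 48 of the 97 lay below the median of all genes. Quantile normalisation gave 80 lower and 5 higher. Median ratio scaling gave 16 lower and 49 higher, against 37.0% and 36.7% of all genes. Relative to the median of all genes, the nuclear medians were 0.12 for complex I, 0.24 for II, -0.14 for III, -0.55 for IV and -0.15 for V.

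**Figure D3:**
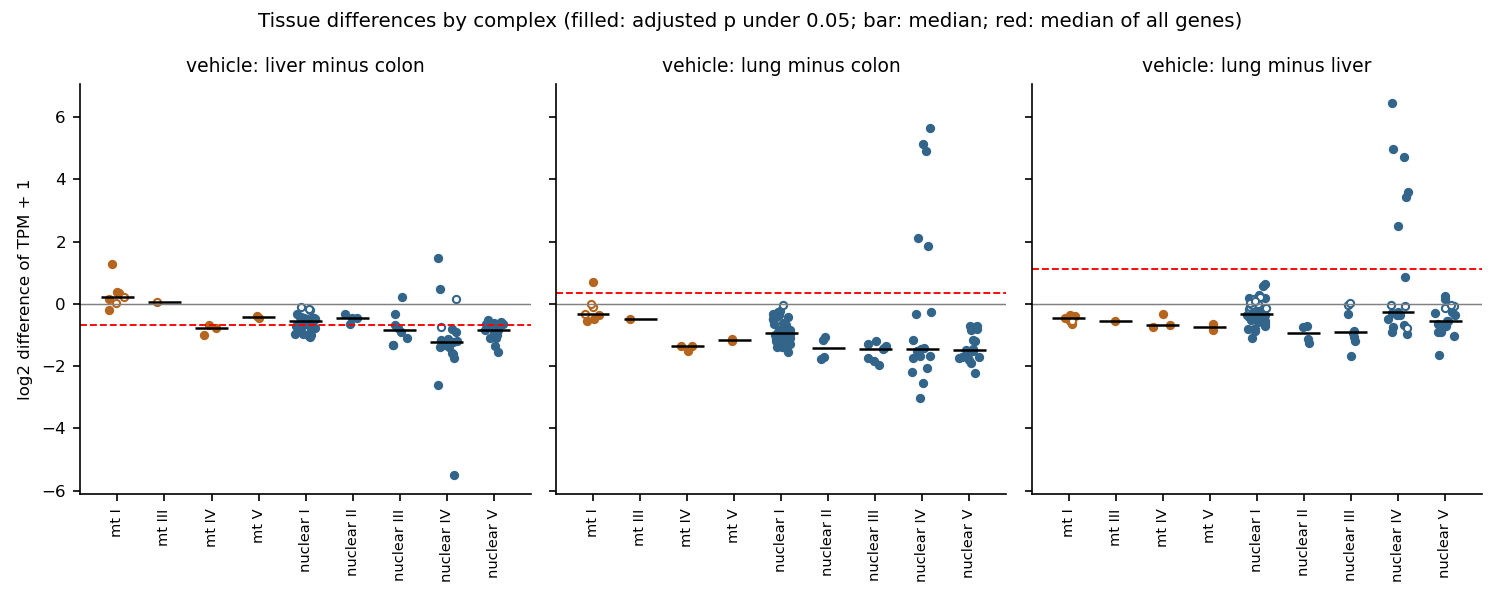
Difference of each gene between vehicle tissues on the log2(TPM + 1) scale, by genome and complex (filled, adjusted p under 0.05 by limma; black bars, medians; red dashed line, median of all genes). In lung minus colon and lung minus liver nearly all genes lie below the red line, and a few nuclear complex IV genes lie far above it.

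The most abundant nuclear genes of complexes I, III, IV and V are given in TPM as deposited. Ndufa6, a complex I accessory subunit, stood at 483 ± 27.1 TPM in vehicle colon, 182 ± 6.36 in lung and 322 ± 20.7 in liver (SD, n = 3). Atp5b, the catalytic beta subunit of ATP synthase, stood at 1393 ± 61.0, 426 ± 16.6 and 795 ± 39.2 TPM. Cox4i1, the common form of subunit 4 of cytochrome c oxidase, stood at 1404 ± 174, 419 ± 26.5 and 535 ± 5.47 TPM. Uqcrh, the hinge protein of complex III, stood at 1032 ± 10.8 TPM in colon and at 422 ± 24.9 in lung, where it did not differ beyond the spread from liver at 412 ± 55.2. Each of the 4 was highest in colon in these values, but the order of liver and colon can turn with the scaling, as given above.

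The genes furthest below colon in lung were Cox7a1 (-3.01), Cox5a (-2.55), Atp5g1 (-2.24), Cox7b (-2.19) and Cox5b (-2.05), with SE of 0.069 to 0.42. Below liver, lung was furthest down for Uqcrq (-1.68), Atp5g1 (-1.63), Sdhb (-1.25), Uqcrfs1 (-1.20) and Sdhd (-1.12). Uqcrfs1 is the Rieske iron-sulfur protein of complex III and Sdhb the iron-sulfur subunit of complex II. As deposited, the nuclear genes called higher in liver than colon were Uqcrq, Ndufa4 and Ndufa4l2. Median ratio scaling called many more genes higher in liver, as given above. Uqcrq, a small complex III subunit, stood at 601 ± 39.5 TPM in vehicle liver, 512 ± 35.8 in colon and 187 ± 12.4 in lung.

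Complex II, whose 4 genes form succinate dehydrogenase, had 1 order of tissues in TPM as deposited. Sdha, the flavoprotein subunit, lay between 237 and 282 TPM in vehicle colon, between 124 and 127 in lung and between 202 and 217 in liver. Sdhb was at 241 to 285, 79.5 to 85.5 and 182 to 226 TPM. The membrane anchors Sdhc and Sdhd were at 152 to 167 and 318 to 343 TPM in colon, at 68.1 to 77.6 and 92.5 to 102 in lung, and at 113 to 122 and 204 to 216 in liver. None of the 4 overlapped between vehicle tissues, and all were highest in colon and lowest in lung. Under median ratio scaling the 4 instead stood higher in liver than colon, by 0.63 for Sdha, 0.51 for Sdhb, 0.51 for Sdhc and 0.30 for Sdhd.

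Subunit c of ATP synthase, the proton-carrying ring, is encoded by Atp5g1, Atp5g2 and Atp5g3, whose mature proteins are the same. Atp5g1 made up 31.0% ± 0.94 of their summed TPM in vehicle colon, 32.9% ± 0.588 in liver and 19.2% ± 0.548 in lung (SD, n = 3). Atp5g2 made up 20.3% ± 2.21, 17.0% ± 0.83 and 36.7% ± 2.36 in the same order, and Atp5g3 48.8%, 50.1% and 44.0%. Such shares do not change with a common factor per library, and lung lay apart from both other tissues for Atp5g1 and Atp5g2. Atp5g2 has a copy, Gm10175, identical over 645 bases, so its share is less certain.

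Complex IV contains subunits with alternative forms, and the largest tissue differences among the 97 genes were theirs. Cox4i2, a lung form of subunit 4 (GRCm38, chromosome 2, 152754173 to 152765037, plus strand), was listed at 97.7, 105 and 96.0 TPM in vehicle lung, at 1.03, 0.68 and 1.35 TPM in vehicle colon, and at 0.11, 0.07 and 0.3 TPM in vehicle liver. It made up 19.2% ± 1.43 of subunit 4 transcripts in lung (SD, n = 3), 0.0733% in colon and 0.03% in liver. The difference between lung and colon was 5.65 (SE 0.14, adjusted p = 1.79e-09 by limma), and lung did not overlap either other tissue. Of 6 pericyte markers, Higd1b, Pdgfrb and Notch3 were also highest in lung: Higd1b was at 70.8 to 75.4 TPM in vehicle lung and at most 0.32 TPM in vehicle colon and liver. Rgs5 of that list was highest in colon, and Kcnj8 and Abcc9 were not highest in lung either. Kcnj8 stood at 4.57 to 5.74 TPM in vehicle lung, 4.77 to 6.2 in colon and 2.0 to 2.79 in liver. Abcc9 stood at 3.68 to 4.39 TPM in vehicle lung, 4.49 to 5.54 in colon and 4.29 to 6.1 in liver. The 6 markers summed to 149 to 163 TPM in vehicle lung, 113 to 189 in colon and 19.4 to 24.7 in liver. Their part in the levels of Cox4i2 and Ndufa4l2 was not tested.

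Ndufa4l2, the paralogue of Ndufa4 that hypoxia-inducible factors are known to raise (chromosome 10, 127514967 to 127517154, plus strand), was listed at 39.4, 51.7 and 41.7 TPM in vehicle lung, at 0.5, 0.61 and 0.4 in colon, and at 6.0, 2.27 and 2.09 in liver. It was 4.90 higher in lung than colon (SE 0.28, adjusted p = 3.07e-07 by limma) and 1.46 higher in liver than colon (SE 0.28, adjusted p = 0.00102). Ndufa4 itself went the other way between lung and liver, at 321 ± 24.0 TPM in lung and 532 ± 4.2 TPM in liver.

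Cox6b2, known from testis, and Cox6a2 and Cox8b, known from heart and skeletal muscle, were also detected in lung. Cox6b2 was listed at 44.9, 37.1 and 34.1 TPM in vehicle lung, at 8.06, 6.86 and 9.37 in colon, and at 0.54, 0.7 and 0.28 in liver. Markers of testis germ cells (Prm1, Prm2, Tnp1 and Acrv1) were at or near 0 in all libraries, at most 0.13 TPM. Cox8b was listed at 9.15, 11.8 and 15.6 TPM in vehicle lung, 2.76, 2.36 and 2.53 in colon, and 0, 0 and 0.22 in liver. Each of these lung levels lay above both other tissues.

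Cox6a2 (chromosome 7, 128205435 to 128206387, minus strand) was listed at 34.0, 27.1 and 44.8 TPM in vehicle lung and at 38.8, 65.9 and 26.6 TPM in RECTAS lung, and at most at 0.16 TPM in any other library. Cardiomyocyte markers were present in the same lung libraries. The 9 markers, among them Myh6, Myl7 and Tnnt2, summed to 521, 284 and 690 TPM in vehicle lung and to 573, 1296 and 142 TPM in RECTAS lung, against at most 20.9 TPM in colon and 2.6 in liver. The 6 lung libraries had the same order for Cox6a2 and for these markers, from RECTAS 3, the lowest, to RECTAS 2, the highest. The 7 skeletal muscle markers summed to 8.7 TPM or more in vehicle lung and to 6.0 to 33.6 TPM in RECTAS lung. They were lowest in RECTAS 3 and highest in RECTAS 2, where Ckm was at 23.1 TPM. The myosins Myh1, Myh2 and Myh4 were at most 0.11 TPM in lung. In colon these 7 markers summed to 28.4 to 42.3 TPM, above every vehicle lung library, with Ckm at 21.6 to 34.1 TPM. Every liver library had a lower sum than any lung library. The 5 brown fat markers summed to 9.8 to 16.8 TPM in lung, with Adrb3 up to 12.1 TPM and Ucp1 at most 0.14 TPM. In liver the same 5 markers summed to 20.3 to 34.7 TPM, and in colon to 1.3 to 2.1 TPM. The part of these markers in the Cox6a2 level was not tested.

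Cox7a1, another heart and muscle form, was instead highest in colon. It was listed at 97.2, 158 and 122 TPM in vehicle colon and at 109, 88.6 and 171 TPM in RECTAS colon, at 7.83 to 36.0 TPM in lung, and at 0.76 to 4.76 TPM in liver. It made up 22.7% ± 3.36 of the Cox7a1 and Cox7a2 transcripts in vehicle colon, 8.73% ± 2.01 in lung and 1.12% ± 1.06 in liver. The 5 colonocyte markers summed to 9205, 28045 and 18273 TPM in vehicle colon and to 15573, 13238 and 28537 TPM in RECTAS colon, most of it Car1, and vehicle 2 and RECTAS 3 were highest both for this sum and for Cox7a1. Car4 of the same list was lowest in RECTAS 3, at 545 TPM. The 6 smooth muscle markers summed to 4263, 1558 and 1489 TPM in vehicle colon and to 2501, 2511 and 1330 TPM in RECTAS colon. The part of either cell type was not tested.

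**Figure D4:**
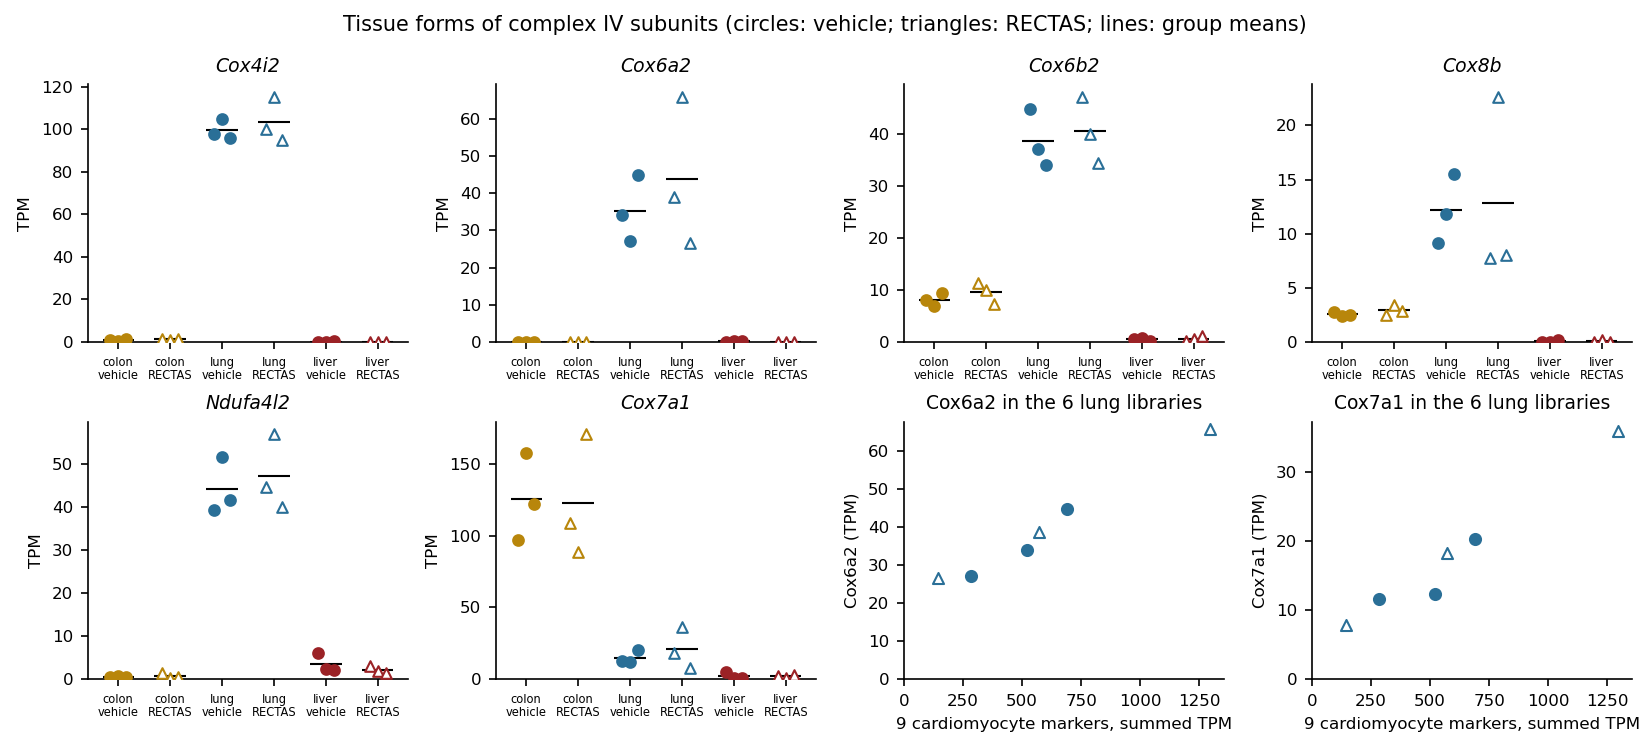
TPM of 6 alternative complex IV genes per library (circles, vehicle; triangles, RECTAS; lines, means of 3), and Cox6a2 and Cox7a1 in the 6 lung libraries against the summed TPM of 9 cardiomyocyte markers. Cox4i2, Cox6a2, Cox6b2, Cox8b and Ndufa4l2 are highest in lung and Cox7a1 in colon, and the lung library with 1296 TPM of cardiomyocyte markers is highest for Cox6a2 and Cox7a1.

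Within the mitochondrial genome the genes did not keep the same proportions across tissues. Mt-Nd2, a core membrane subunit of complex I (chromosome M, 3914 to 4951), was listed at 4464, 3466 and 3932 TPM in vehicle colon, 6380, 6780 and 6101 TPM in lung, and 9448, 9250 and 9676 TPM in liver. The tissues did not overlap, and colon, which had the highest sum of all 13 genes, was lowest for this one. Neighbouring mt-Nd1, also of complex I, was 10393 ± 454 TPM in colon, 7087 ± 437 in lung and 9009 ± 425 in liver (SD, n = 3). The ratio of mt-Nd2 to mt-Nd1, which needs no scaling, was 0.380 ± 0.0316 in vehicle colon, 0.906 ± 0.0227 in lung and 1.05 ± 0.0261 in liver. No annotated copy of mt-Nd1 was found, and that of mt-Nd2 was listed at 3.5 TPM or less. Mt-Nd2 was higher in liver than colon by 1.27 as deposited, 2.23 under median ratio scaling and 0.62 under quantile normalisation.

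Mt-Co1 (chromosome M, 5328 to 6872) had colon in the other place, highest in place of lowest, while liver lay above lung as for mt-Nd2. It was listed at 38711, 41976 and 43123 TPM in vehicle colon, 14390, 14980 and 14029 TPM in lung, and 25577, 22987 and 23793 TPM in liver. Summed over the 3 complex IV genes, colon was 2.76 times lung and 1.71 times liver. Summed over the 7 complex I genes it was 1.12 times lung and 0.818 times liver. In limma all 3 mitochondrial complex IV genes were lower in liver than colon (medians -0.78 for complex IV and 0.22 for complex I), while mt-Nd2 (1.27, SE 0.10), mt-Nd4l (0.39), mt-Nd4 (0.34) and mt-Nd5 (0.15) were higher. Under median ratio scaling mt-Co1 and mt-Co3 instead stood at 0.18 and 0.27 and were not called, and under quantile normalisation mt-Nd4l, mt-Nd4 and mt-Nd5 stood at -0.42, -0.38 and -0.68. With copies added, mt-Co1, mt-Co2 and mt-Co3 stood at -0.76, -0.83 and -0.65 without rescaling, and mt-Nd4l at 0.38.

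Mt-Cytb, the mitochondrial subunit of complex III, was not called between liver and colon as deposited (0.05, SE 0.09, adjusted p = 0.642 by limma). Mt-Nd6, the only one of the 13 on the minus strand, lay between 5173 and 5567 TPM in vehicle colon, between 3887 and 4733 in lung and between 5127 and 6017 in liver, so lung lay below both. The library kit keeps the strand of the RNA, but whether the counting used it is not stated in the labels, so reads of mt-Nd6 and of RNA from the opposite strand cannot be told apart.

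RECTAS gave no gene of the 97 that passed the threshold in any tissue. In colon 95 of them were tested and 0 were called, with 0 at an unadjusted p under 0.05, where 0% and 1.62% of all genes were so called. In lung 97 were tested and 0 were called, with 0 at an unadjusted p under 0.05 against 12.6% of all genes, where 0.00637% of all genes were called. In liver 93 were tested and 0 were called, with 2 at an unadjusted p under 0.05 against 11.6%, where 0.0167% of all genes were called. The tool was limma throughout.

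The median difference of nuclear genes, RECTAS minus vehicle, was 0.04 in colon, 0.01 in lung and -0.03 in liver, and that of all genes was 0.02, 0.06 and -0.04. For the mitochondrial genes it was -0.06, -0.12 and -0.004. The SE of a single nuclear gene had a median of 0.0898 in colon, 0.0733 in lung and 0.0729 in liver, and of a mitochondrial gene 0.173, 0.0989 and 0.0884. Leaving out 1 library at a time moved the mitochondrial median in colon between -0.15 and 0.07, and without colon RECTAS replicate 3 its sign changed.

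Groups that did not overlap were few. In colon 2 of the 95 genes were higher in every RECTAS library and 1 was lower, where 3.43% and 2.01% of all genes were. In lung 0 were higher and 3 lower, where 16.1% and 3.18% of all genes were. In liver 2 were higher and 7 lower, where 5.75% and 13% of all genes were. In each tissue and direction the share among these genes was no larger than the share among all genes.

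The smallest p-values belonged to Ndufs3 and mt-Co2, both in liver. Ndufs3, a core subunit of the peripheral arm of complex I (chromosome 2, 90894634 to 90904827, minus strand), was listed at 136, 129 and 132 TPM in vehicle liver and at 111, 113 and 113 TPM in RECTAS liver. The groups did not overlap, and the difference was -0.23 (SE 0.063, unadjusted p = 0.0071 and adjusted p = 0.29, limma over 11944 genes). In colon Ndufs3 stood at -0.07 and in lung at -0.10, with adjusted p of 1 and 0.511. Ndufs1 and Ndufs7, other iron-sulfur subunits of complex I, were -0.13 and -0.11 in liver, with groups apart and adjusted p of 0.509 and 0.543.

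Mt-Co2 was listed at 2580, 3072 and 3769 TPM in vehicle liver and at 3779, 4181 and 3853 TPM in RECTAS liver, a difference of 0.34 (SE 0.14, adjusted p = 0.421 by limma). The highest vehicle library lay just under the lowest RECTAS library. With the TPM of its copy Gm28661 added the difference was 0.03, and that of mt-Co3 went from 0.20 to 0.002. In lung, mt-Nd3 went from 0.38 (adjusted p = 0.686) to -0.16 with its copy. Adding the copy thus brought mt-Co2 and mt-Co3 in liver close to 0 and turned the sign of mt-Nd3 in lung. For mt-Co1 in lung it instead set the groups apart. Alone, mt-Co1 stood at 14028.7 to 14979.5 TPM in vehicle lung and 12196.5 to 14195.0 TPM in RECTAS lung, which overlap. With its copy it stood at 20111.4 to 22225.6 TPM and 17277.4 to 19904.2 TPM, without overlap. Of all genes in lung as deposited, 3.18% were likewise lower without overlap. The copy spans 492 bases and mt-Co1 1545, and TPM is adjusted for length. A read given to the copy thus adds more TPM, and the sum is not a level of mt-Co1.

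In colon the smallest p-values were those of Ndufs8 (0.13), Ndufb10 (0.14), Ndufb4 (-0.11), Ndufa7 (-0.10) and Cox6b1 (0.13), all complex I or IV subunits with adjusted p of 1, and with its copy added Ndufb4 was 0.06. In lung mt-Nd4l (-0.20, adjusted p = 0.419), mt-Nd6 (-0.21, 0.442) and mt-Nd1 (-0.19, 0.487) came first, and 10 of the 13 mitochondrial genes were below 0. With the copy added mt-Nd4l was -0.05. The summed copies were 52499 to 57245 TPM in vehicle lung and 45054 to 51251 TPM in RECTAS lung, without overlap, and 106239 to 112461 and 101113 to 104356 TPM in colon, likewise lower. In liver they overlapped, at 72882 to 85002 TPM in vehicle and 73452 to 76986 TPM in RECTAS. Genes and copies together held 13.9% to 15.2% of TPM in vehicle lung and 12.8% to 14.4% in RECTAS lung, which overlap.

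The ratio of mitochondrial to nuclear sums overlapped between treatments in each tissue. It was 4.73 to 5.28 in vehicle colon and 3.92 to 5.44 in RECTAS colon, 6.19 to 7.14 and 5.65 to 6.56 in lung, and 7.10 to 7.56 and 7.41 to 7.73 in liver. RECTAS colon replicate 3 was lowest, with a mitochondrial sum of 144045 TPM, the lowest of the 6 colon libraries, and a nuclear sum of 36773 TPM, the highest. That library also stood highest of the 6 for T and B cell markers, 15.3 TPM against 1.9 to 4.9, for erythroid markers, 116.7 TPM against 24.1 to 79.8, and for colonocyte markers, 28537 TPM against 9205 to 28045. The part of these markers was not tested.

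**Figure D5:**
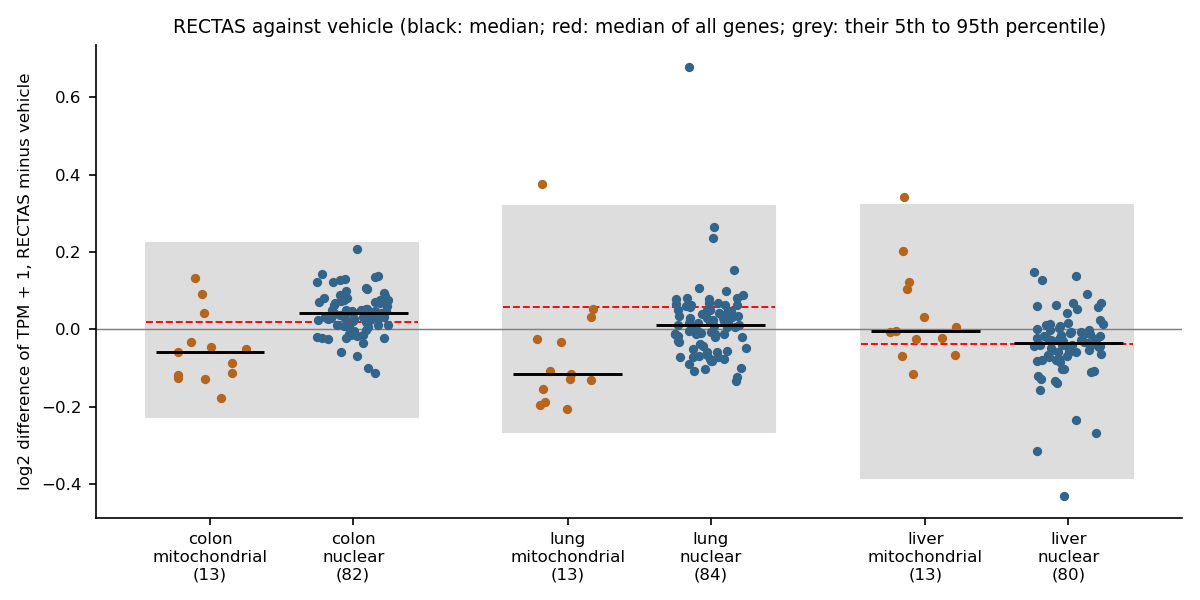
Difference between RECTAS and vehicle on the log2(TPM + 1) scale for each gene, by tissue and genome (points, genes; black bars, medians; red dashed line and grey band, median and 5th to 95th percentile of all genes tested). The points lie inside the band except for mt-Nd3 and Cox6c2 in lung and mt-Co2 and Ndufa4l2 in liver, none of which passed the threshold.

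No gene of the 97 was called for a difference between tissues in its response to RECTAS, tested as an interaction over all 18 libraries with limma. For liver against colon 0 were called and 2 had an unadjusted p under 0.05, where 0.0285% and 5.37% of all genes did. For lung against colon 0 were called and 1 had an unadjusted p under 0.05, against 0.0114% and 3.22%. For lung against liver 0 were called and 3 had an unadjusted p under 0.05, against 0.0228% and 8.98%. The leading genes were Ndufb10 (-0.28, adjusted p = 0.844) for liver against colon, Ndufa2 (-0.21, adjusted p = 1) for lung against colon, and Ndufb4 (0.38, adjusted p = 0.503), mt-Nd1 (-0.31, 0.505) and Ndufs1 (0.19, 0.531) for lung against liver. Ndufb4 is shared with the identical pseudogene Ndufb4c, which was given 90.3% of the pair in vehicle colon, and with it added the interaction of Ndufb4 was 0.02.

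Genes that build, express or feed the complexes gave the same picture for RECTAS, with 0 called in each of 6 lists and each tissue by limma. The lists were assembly factors (46 genes), expression of mitochondrial DNA (28), nuclear regulators (17), electron carriers and transporters (21), the TCA cycle (17) and the mitochondrial ribosome (78). Their medians lay between -0.13 and 0.12 on the log2 scale. In lung, where 12.6% of all genes had an unadjusted p under 0.05, the count was 3 of 45 assembly factors, 0 of 28 mitochondrial DNA expression genes, 3 of 15 nuclear regulators, 1 of 18 electron carriers, 0 of 17 TCA cycle genes and 3 of 78 ribosome genes. It was at most 1 per list in colon and 2 in liver. The regulators in lung were Hif1a, the oxygen-sensing factor (0.26, adjusted p = 0.267), Yy1 (0.22, 0.283) and Pprc1, a PGC-1 relative (0.47, 0.311). Pprc1 was also first in colon (0.36, adjusted p = 1), and Gabpb1, a partner of an ETS factor of these genes, was first in liver (-0.33, 0.302).

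Between vehicle tissues, the counts of the lists stand beside 24.7% of all genes lower and 51.0% higher in lung than colon, and 13.5% lower and 74.5% higher in lung than liver. Of the TCA cycle genes 15 of 17 were lower and 1 higher in lung than colon (median -1.07). Against liver 8 were lower and 6 higher as deposited, and 17 lower and 0 higher under median ratio scaling, where 36.9% and 39.8% of all genes were. Suclg2 and Suclg1, subunits of succinyl-CoA ligase, were -2.34 and -2.04 in lung minus colon. Of the mitochondrial ribosome genes 47 of 78 were lower and 9 higher in lung than colon (median -0.28), and 66 lower and 1 higher under median ratio scaling, against 36.9% and 35.5% of all genes. Between lung and liver their direction turned with the scaling, from 38 higher and 24 lower as deposited to 0 and 76. Of the mitochondrial DNA expression genes 10 of 28 were lower and 9 higher in lung than colon (median -0.02), against 15 and 2 under median ratio scaling, and Lrpprc, which stabilises mitochondrial messages, was -1.01.

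Electron carriers and transporters had 15 of 18 lower and 3 higher in lung than colon, beside the same 24.7% and 51.0% of all genes, led by Slc25a5, an ADP/ATP carrier (-2.72). Slc25a4, the carrier of heart and muscle, was 4.61 higher in lung than liver, where the cardiomyocyte markers given above differed too, and their part was not tested. Atpif1, the inhibitor of ATP synthase, was 3.81 lower in liver than colon. Among regulators Epas1, which encodes HIF-2 alpha, was 4.37 higher in lung than colon (SE 0.11, adjusted p = 1.69e-09 by limma). Esrra, a nuclear receptor that acts on genes of oxidative phosphorylation, was 2.33 lower in lung and 2.61 lower in liver than colon, and Ppargc1b, its coactivator, 3.17 lower in lung than colon.

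The letters of the start regions of the nuclear genes were searched for known motifs. RefSeq windows of GRCm38.p6, from 250 bases before to 50 after the start, were found by symbol for 67 of the 84 nuclear genes. The letters GCGCATGC, the core bound by NRF1, stood on either strand in 10 of 67 (14.9%), against 3.05% of 27025 genes. CCGGAAG, an ETS factor core, stood in 17 (25.4%) against 9.93%, AAGATGG of YY1 in 11 (16.4%) against 7.28%, and AAGGTCA, a site of estrogen-related receptors, in 8 (11.9%) against 5.38%. CTAAAAATA, a MEF2 site, stood in 0, against 0.588%, and the E-box CAGCTG in 6 (8.96%) against 18.3%. Matches are a description of letters and say nothing of binding. They were not related to the differences between tissues, and the 27025 genes were not matched for base composition.

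Atp5l and Cox6a1 were among the genes with both the NRF1 and the ETS letters in the window, and stretches before their starts are shown with those letters in capitals. For Atp5l, an ATP synthase subunit, the stretch (chr9:44920921-44920992, minus strand) holds both. For Cox6a1, the common form beside Cox6a2, the stretch (chr5:115348982-115349129, minus strand) holds the NRF1 letters on both strands, which overlap.
Atp5l: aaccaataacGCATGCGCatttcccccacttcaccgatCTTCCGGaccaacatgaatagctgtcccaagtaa
Cox6a1: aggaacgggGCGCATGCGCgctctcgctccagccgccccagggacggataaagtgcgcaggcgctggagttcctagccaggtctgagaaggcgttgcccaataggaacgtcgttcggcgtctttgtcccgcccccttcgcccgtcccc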

How the data were processed

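The authors deposited gene-level TPM per library, used as deposited; columns sum to between 999995 and 1000004, so no depth, interval or floor can be given. The submitters' processing notes name HISAT2 2.2.0, RSEM 1.3.0 and the build GRCm38, without their roles. Per the labels' protocols, libraries were stranded TruSeq from TRIzol extracts. Which annotation was counted, and how reads matching several places were treated, is not given in the sources used here. GENCODE M21 (GRCm38) gave coordinates and lengths for 55141 of 55401 genes.

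Genes at 1 TPM or more in at least 3 of the 6 libraries of a tissue (3 of 9 for vehicle tissues, 3 of 18 for interactions) entered limma 3.58.1 (R 4.3.3) on the log2(TPM + 1) scale (mean-variance trend, two-sided, no block), with Benjamini-Hochberg adjustment over all genes at 0.05. The procedure was checked on simulated data with changes larger than any RECTAS difference of these genes. That check does not show whether differences as small as those would be called. Pseudogene copies were found with blastn 2.17.0 between GENCODE transcripts, at 95% identity or more over at least 50% of the copy. Adding copies to their parent gene was chosen after seeing the data.

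Named were all mitochondrial genes, the alternative forms, complex II, the highest gene per complex, the genes with the smallest p or largest difference per comparison, and up to 3 genes per list. The members, lists and tests were chosen with earlier results of these data known. In no pair of groups did all same-numbered libraries deviate together (correlation above 0.1), so the replicate numbers were not used to pair them. Other settings tried were a pseudocount of 0.1 or 5 TPM, a filter of 5 TPM or none, median ratio scaling, quantile normalisation, rescaling without the mitochondrial genome, the replicate block, 1 fit of all 18 libraries and leaving out each library.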

Additional observations from a re-analysis of the deposited data

How the results depend on the processing

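Read depth is unknown for TPM, so its effect on precision cannot be given. Under all alternatives run, the count of called genes was 0 for RECTAS in each tissue and for each interaction, 65 to 90 for liver against colon, 84 to 96 for lung against colon and 65 to 97 for lung against liver. Median ratio scaling turned the sign in liver minus colon for Atp5g1 (0.35), Atp5g2 (0.017), Atp5g3 (0.30), mt-Atp6 (0.58), mt-Atp8 (0.49), mt-Co1 (0.18), mt-Co3 (0.265) and mt-Nd1 (0.75), and in lung minus liver for Atp5g2 (-1.13) and Cox7a2l (-0.52). Quantile normalisation turned it in liver minus colon for mt-Nd4 (-0.38), mt-Nd4l (-0.42) and mt-Nd5 (-0.68), in lung minus colon for Ndufa4 (0.00458) and mt-Cytb (0.147), and in lung minus liver for mt-Atp6 (0.16), mt-Co2 (0.72), mt-Co3 (0.41), mt-Cytb (0.50), mt-Nd1 (0.82), mt-Nd2 (0.33), mt-Nd4 (0.60), mt-Nd4l (0.60), mt-Nd5 (0.41) and mt-Nd6 (0.62). These values are without copies: with the copies added and no rescaling, mt-Atp6 stood at -0.43 in liver minus colon and -0.60 in lung minus liver, mt-Nd4l at 0.38 and -0.55, mt-Co2 at -0.83 and -0.41, and mt-Co3 at -0.65 and -0.62. The cause was not tested. For RECTAS minus vehicle, the mitochondrial median in lung was -0.0184 under quantile normalisation and that in liver 0.0468 under median ratio scaling. The nuclear median in lung was -0.0508 under median ratio scaling and -0.083 under quantile normalisation, and in liver 0.0161 under median ratio scaling.

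Without genes under 300 bases the ratio of mitochondrial to nuclear sums was 3.21 (vehicle) and 3.06 (RECTAS) in colon, 4.35 and 4.01 in lung, and 4.86 and 5 in liver. With copies added, a setting chosen after seeing the data, it was 7.93 and 7.28, 9.89 and 9.11, and 11 and 11.1. Leaving out 1 library at a time gave 86 to 90 called genes for liver against colon, 90 to 92 for lung against colon and 72 to 79 for lung against liver. With the replicate number as a block the counts were 87, 92 and 74 for these comparisons and 0 for RECTAS in each tissue and for each interaction, so the block changed no count by over 1.5 times. The correlations of same-numbered libraries were above 0.1 for 2 of 3 numbers in lung and for 1 in colon.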

Other observations

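Some nuclear genes share their sequence with processed pseudogenes as the mitochondrial genes do. Of 52 copies of nuclear genes at 95% identity or more, 3 averaged above 100 TPM: Gm12338 of Cox7c (identical over 192 bases), Gm10221 of Atp5l (identical over 309) and Ndufb4c of Ndufb4 (identical over 390). In vehicle colon they held 60.4%, 33.7% and 90.3% of the TPM of gene and copies. The share for Cox7c was 63.2% in lung and 59.8% in liver, and that for Ndufb4 was 90.3% and 91.1%. Ndufb4, a complex I subunit, was thus listed at 29.9 TPM in vehicle colon while its pseudogene was listed at 260, 283 and 296 TPM.

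The mitochondrial ribosomal RNAs, which mt-Rnr1 and mt-Rnr2 encode, summed to 1652 to 2647 TPM in colon, 856 to 1034 TPM in lung and 703 to 1078 TPM in liver. Hepatocyte markers summed to 490 and 1358 TPM in lung vehicle replicates 2 and 3 and to 546 TPM in lung RECTAS replicate 3, against 9.6 to 64.0 TPM in the other 3 lung libraries and 91844 TPM or more in liver.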
